A study of Mus musculus with 12 samples.

Results

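Of 44242 merged open regions in mouse SHH medulloblastoma, 430 had a peak in both libraries of SOX2+ cells that were not cycling and in neither library of SOX2+ cells that were cycling. The assay was ATAC-seq, where a transposase inserts adapters into accessible DNA, on tumour cells sorted from endpoint brain tumours of untreated Ptch1+/- mice. Ptch1 encodes the receptor that restrains hedgehog signalling, and every group carried this genotype. The groups were SOX2+ and SOX2- cells sorted by eGFP (4 libraries each), and SOX2+/MKI67- and SOX2+/MKI67+ cells sorted further by RFP (2 libraries each). Peaks of all 12 lists on 19 autosomes and chromosome X that shared at least 1 bp were merged, and a region was chosen when it was listed in 2 of 2 SOX2+/MKI67- and 0 of 2 SOX2+/MKI67+ libraries. The 430 regions were thus chosen by the peak lists of the MKI67 sort, and their values there are described without a test. The 8 libraries of the SOX2 sort took no part in the choice. Every region was nonetheless chosen by peaks of SOX2+ cells, so a higher share in SOX2+ libraries may be partly built in. The labels give neither the age of the mice nor whether replicates came from separate animals, so p-values measure the spread between these libraries, which may be technical.

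SOX2 is a transcription factor of neural stem cells, and in SHH medulloblastoma SOX2+ cells are a small stem-like compartment of which many members divide rarely. MKI67 is a nuclear protein present in cycling cells and lost in quiescent ones, so that the RFP sort splits the SOX2+ compartment by cycling. Open regions away from gene starts are often enhancers, which differ between cell states more than promoters do. At the loci of the sort markers, Sox2 carried 3 to 6 listed regions in every library of the MKI67 sort, 2 to 5 in SOX2+ and 0 to 1 in SOX2- libraries. Mki67 carried 2 and 1 in SOX2+/MKI67- libraries and 2 and 5 in SOX2+/MKI67+ libraries, which overlap. The lists held 7009 to 26206 peaks. Depth in reads is unknown, and absence from a list does not show that the region was closed.

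The SOX2 sort, whose SOX2+ libraries were not split by cycling, bears on the name of the set. Of the 430 regions, 365 (84.9%) were listed in no SOX2- library and 65 (15.1%), which go against the name, in at least 1, where 68.6% of all regions were. In at least 1 SOX2+ library were 342 (79.5%), beside 65.6% of all regions. In none of these 8 libraries were 78 (18.1%), beside 7.96% of all regions. A near class, the 2644 regions in 1 of 2 SOX2+/MKI67- and 0 of 2 SOX2+/MKI67+ libraries, was similar in SOX2- libraries. Of that class 15.4% were in at least 1 SOX2- library, 47.2% in at least 1 SOX2+ library and 47.5% in none. For the 430 regions, the nearest SOX2+/MKI67+ peak lay at a median distance of 26.7 kb (quartiles 8902 and 62344 bp), and within 1 kb for 20 regions.

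Few of the 430 regions reached a promoter, and the sequences that can be shown come from those that did. RefSeq promoters (build GRCm38.p6, on mm10 coordinates, 250 bases before to 50 after a start) were overlapped by 34 of the 415 regions on chromosomes whose promoters were used, at 39 promoters of 37 genes. The first 3 below belong to the only such promoters whose region was listed in 3 or more SOX2+ libraries and no SOX2- library. The last, at a start of Nrxn3, belongs to a region listed in none of these 8. Each is the 250 bases before the start, 5′ to 3′, with capitals for matches to the motifs spelled out after them.
Cacnb4, chr2:52558612-52558861, minus strand: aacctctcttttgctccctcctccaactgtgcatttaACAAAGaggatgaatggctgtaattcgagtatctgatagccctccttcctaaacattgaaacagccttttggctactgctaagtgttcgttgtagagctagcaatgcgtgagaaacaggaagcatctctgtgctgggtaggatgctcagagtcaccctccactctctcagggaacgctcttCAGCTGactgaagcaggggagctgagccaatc
Emp1, chr6:135362681-135362930, plus strand: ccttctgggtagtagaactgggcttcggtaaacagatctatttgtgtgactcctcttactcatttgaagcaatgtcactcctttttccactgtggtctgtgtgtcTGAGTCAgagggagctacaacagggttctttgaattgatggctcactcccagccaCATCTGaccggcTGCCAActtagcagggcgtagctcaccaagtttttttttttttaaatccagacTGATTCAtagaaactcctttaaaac
Parp8, chr13:117025532-117025781, minus strand: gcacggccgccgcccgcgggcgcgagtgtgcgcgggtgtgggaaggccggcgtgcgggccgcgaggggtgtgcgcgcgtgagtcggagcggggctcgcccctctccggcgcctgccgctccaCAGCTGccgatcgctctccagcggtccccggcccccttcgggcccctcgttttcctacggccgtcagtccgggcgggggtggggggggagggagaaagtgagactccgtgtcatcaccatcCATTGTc
Nrxn3, chr12:88953140-88953389, plus strand: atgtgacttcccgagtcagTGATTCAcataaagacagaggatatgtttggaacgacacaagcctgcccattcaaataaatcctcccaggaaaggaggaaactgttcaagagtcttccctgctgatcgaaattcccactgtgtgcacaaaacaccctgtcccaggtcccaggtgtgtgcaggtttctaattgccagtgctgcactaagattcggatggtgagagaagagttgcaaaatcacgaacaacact

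Cacnb4 encodes a beta subunit of voltage-gated calcium channels. Its region, chr2:52558231-52558826, covered 215 of the 250 bases shown, and the sequence holds 1 SOX match, ACAAAG, and 1 E-box, CAGCTG. Emp1 encodes a membrane protein of the PMP22 family, and its region, chr6:135362568-135363026, covered all 250 bases, which hold 2 AP-1 matches, TGANTCA, 1 E-box, CATCTG, and 1 short NFI match, TGCCAA. Parp8, of the poly-ADP-ribose polymerase family, had its region at chr13:117025553-117025968, which covered 229 bases and holds 1 CAGCTG. The SOX match shown in the Parp8 promoter, ACAATG on the other strand, lies nearer the start, outside the region. The Parp8 region had a SOX2+/MKI67+ peak 543 bp away. Nrxn3 encodes a presynaptic adhesion protein of neurons, and its region at chr12:88953086-88953441 covered all 250 bases, with 1 TGANTCA match.

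All 39 promoters were searched on both strands over 300 bases for 13 motifs and set beside the 32619 promoters of the table. CAGCTG was in 11 of 39 (28.2%) against 16.4% of all promoters, CATCTG in 8 (20.5%) against 17.1%, and TGANTCA in 5 (12.8%) against 7.85%. ACAAAG was in 3 (7.69%) against 18.7%, ACAATG in 1 (2.56%) against 12.2%, TGCCAA in 4 (10.3%) against 14.1%, and the TEAD motif GGAATG in 4 (10.3%) against 14.6%. The homeodomain motif TAATTA was in 2 (5.13%) against 5.25%, and the EGR motif GCGTGGGCG in 1 (2.56%) against 0.616%. The full NFI palindrome, the RFX motif, the CTCF motif and the GLI motif GACCACCCA were in 0 of 39, against 0.0368%, 0.30%, 0.0123% and 0.254% of all promoters. These shares rest on 39 sequences of 34 regions, some of them overlapping stretches of the same DNA, and are given as a description. Both TAATTA matches are 1 site in 2 overlapping Lmo1 promoters, and 1 CAGCTG site counts for both Atpif1 and Dnajc8. GC content was a median of 59.0% at these promoters, 53.0% over the table and 63.3% at the 9513 promoters overlapped by regions listed in all 4 libraries of the MKI67 sort. CpG dinucleotides numbered a median of 14 per 300 bases at the 39 promoters, 7 over the table and 24 at those 9513. Of those 9513, ACAAAG was in 11.4%, ACAATG in 6.03%, TGCCAA in 10.1% and GGAATG in 10.1%. CAGCTG was in 13.98% of them, CATCTG in 9.19% and TGANTCA in 3.62%. Beside these, TGCCAA and GGAATG were of like size at the 39 promoters, and ACAAAG and ACAATG were still lower. At 289 promoters of regions listed in both SOX2+/MKI67+ and neither SOX2+/MKI67- library, ACAAAG was in 20.4%, TGCCAA in 14.9% and GGAATG in 13.5%.

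The regions of the set were weak among the peaks of the SOX2+/MKI67- lists. Strength was taken as the score percentile, the percent of peaks in the same list with a lower score. It was a median of 24.3 in SOX2+/MKI67- replicate 1 (quartiles 10.7 and 40.4, highest 74.5) and 20.6 in replicate 2 (quartiles 9.07 and 35.02, highest 78.3). The authors' fold over local background was a median of 4.08 and 4.02 at these peaks and 4.49 and 4.62 over the whole lists. Their -log10 q-value was a median of 4.82 and 5.09, against 7.63 and 8.63 over the lists. A peak of the set was also narrow, at a median of 260 and 252 bp against 380 and 382 bp. The summits of the 2 replicates lay a median of 57 bp apart, beside 49 bp for the 14012 other regions listed in both SOX2+/MKI67- libraries. Merged regions were 373 bp wide in the median for the set and 670 bp for those others, which limits how far summits can lie apart.

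Ranked by mean score percentile, the regions listed in both SOX2+/MKI67- libraries were members of the set ever less often as they grew stronger. In decile 1, the weakest, with mean percentiles up to 22.3, 203 of 1445 (14.05%) were members. In decile 2, 109 of 1444 (7.55%) were, in decile 5, 18 (1.25%), in decile 6, 3 (0.208%), and in the 4 strongest deciles 0. The plot of members by strength shows this decline, which describes the choice and is no test.

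**Figure D1:**
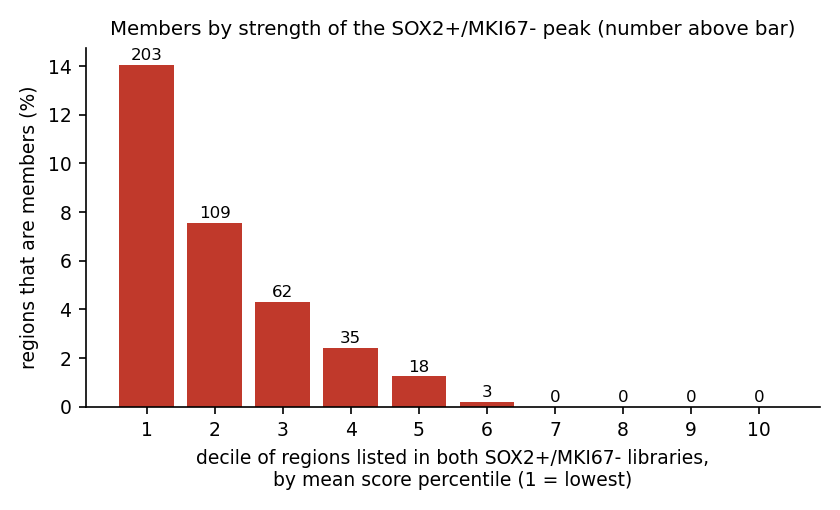
Percent of the regions listed in both SOX2+/MKI67- libraries that were absent from both SOX2+/MKI67+ lists (vertical axis), by decile of mean score percentile (horizontal axis, 1 is weakest), with the number of members above each bar. Bars fall from 14.05% in the weakest decile to 0 in the 4 strongest.

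The set depends on single libraries. Leaving SOX2+/MKI67+ replicate 2 (24694 peaks, the longer list) out of the rule gave 1906 regions instead of 430, and leaving out SOX2+/MKI67+ replicate 1 gave 539. With 1 SOX2+/MKI67- library alone there were 1369 (without replicate 1) and 2135 (without replicate 2). The opposite class, here called mirror regions, was listed in both SOX2+/MKI67+ and neither SOX2+/MKI67- library and numbered 1784, or 4.03% of all regions, against 0.972% for the set.

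In the SOX2 sort, the regions were listed more often in SOX2+ than in SOX2- libraries on average, though not in every library. SOX2+ replicates 1 to 4 listed 131, 14, 128 and 283 of the 430 regions, which is 30.5%, 3.26%, 29.8% and 65.8%. SOX2- replicates 1 to 4 listed 1, 43, 8 and 32, which is 0.233%, 10.0%, 1.86% and 7.44%. SOX2+ replicates 1, 3 and 4 stood above every SOX2- library, and SOX2+ replicate 2, which has the shortest SOX2+ list, lay among them. Mean shares were 32.3 ± 25.7% and 4.88 ± 4.60% (SD, n = 4 each, 2-sided exact permutation p = 0.0857, adjusted 0.12 over 7 tests). The difference of 27.4 percentage points did not pass. Its direction is not particular to the set. The 14012 other regions listed in both SOX2+/MKI67- libraries had mean shares of 84.4% in SOX2+ and 65.3% in SOX2- libraries. For mirror regions, also chosen in SOX2+ cells, the means were 32.0% and 48.9%, the other way. Of the longest lists, SOX2- replicate 2 with 26206 peaks listed 43 of the regions and SOX2+ replicate 4 with 25272 peaks listed 283. Of the shorter ones, SOX2+ replicate 2 with 9377 peaks listed 14 and SOX2- replicate 3 with 12660 peaks listed 8. These pairs were not tested.

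**Figure D2:**
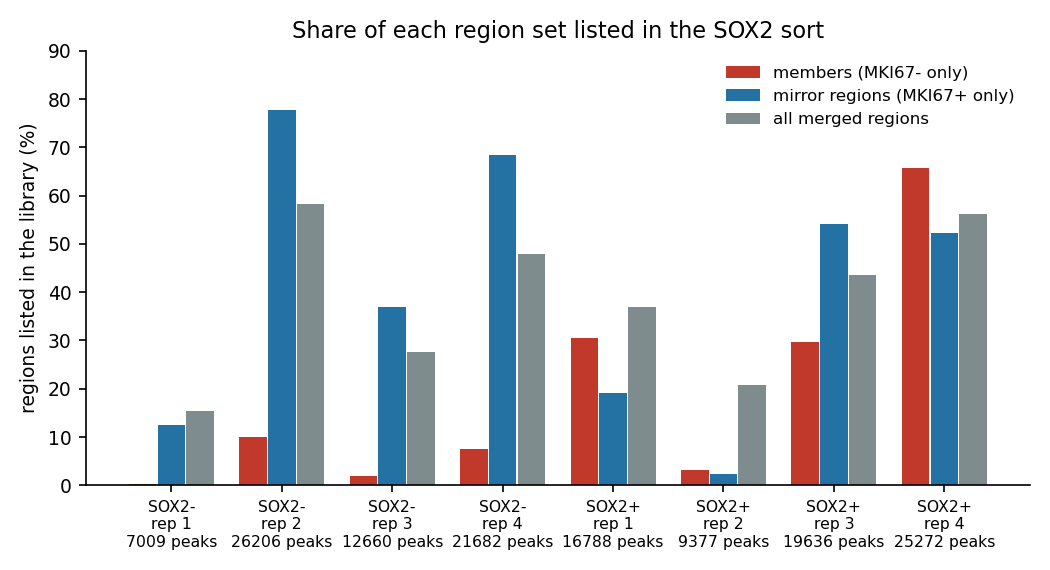
Percent of regions listed (vertical axis) in each of the 8 libraries of the SOX2 sort (horizontal axis, with the number of peaks in each list), for the 430 members, the 1784 mirror regions and all 44242 regions. Members are at 10.0% or below in all 4 SOX2- libraries and reach 65.8% in SOX2+ replicate 4.

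Because lists differ in length, the share of the set was divided by the share of all merged regions listed in the same library. For SOX2+ replicates 1 to 4 the ratio was 0.823, 0.156, 0.684 and 1.17. For SOX2- replicates 1 to 4 it was 0.0150, 0.171, 0.0675 and 0.155. The groups overlapped at SOX2+ replicate 2 alone. The means were 0.709 ± 0.422 and 0.102 ± 0.0739 (n = 4 each, exact permutation p = 0.0571, adjusted 0.1), so this difference did not pass either. The reference also holds regions listed only in SOX2- libraries. With regions outside the set that had a peak in an MKI67 sort library as reference, the difference was 0.427 instead of 0.607 (exact permutation p = 0.0857, adjusted 0.12).

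Against the mirror regions the groups did not overlap. The share of the set over the share of mirror regions was 1.58, 1.35, 0.551 and 1.26 for SOX2+ replicates 1 to 4. It was 0.0186, 0.129, 0.0504 and 0.109 for SOX2- replicates 1 to 4. The means were 1.19 ± 0.445 and 0.0766 ± 0.0510 (n = 4 each, exact permutation p = 0.0286, the smallest that 4 against 4 can give, adjusted 0.0667). Mirror regions were listed at 12.5% to 77.7% in SOX2- libraries and 2.41% to 54.0% in SOX2+ libraries. This ratio also depends on the choice of both sets by the MKI67 sort.

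The same ratio was taken within each class of position. Among regions between genes, the share of the set over the share of all such regions was 1.31, 0.560, 1.19 and 1.48 in the 4 SOX2+ and 0.127, 0.200, 0.0814 and 0.184 in SOX2- replicates 1 to 4 (means 1.14 ± 0.401 and 0.148 ± 0.0543, exact permutation p = 0.0286, adjusted 0.0667). Among regions inside genes it was 1.19, 0.236, 0.685 and 1.44 in SOX2+ and 0, 0.135, 0.0660 and 0.168 in SOX2- replicates (means 0.888 ± 0.537 and 0.0923 ± 0.0747, exact permutation p = 0.0286, adjusted 0.0667). In both classes every SOX2+ library lay above every SOX2- library. At gene ends the means were 0.426 ± 0.312 and 0.142 ± 0.112 and the groups overlapped (exact permutation p = 0.143, adjusted 0.167). Whether the classes differ from each other was not tested.

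**Figure D3:**
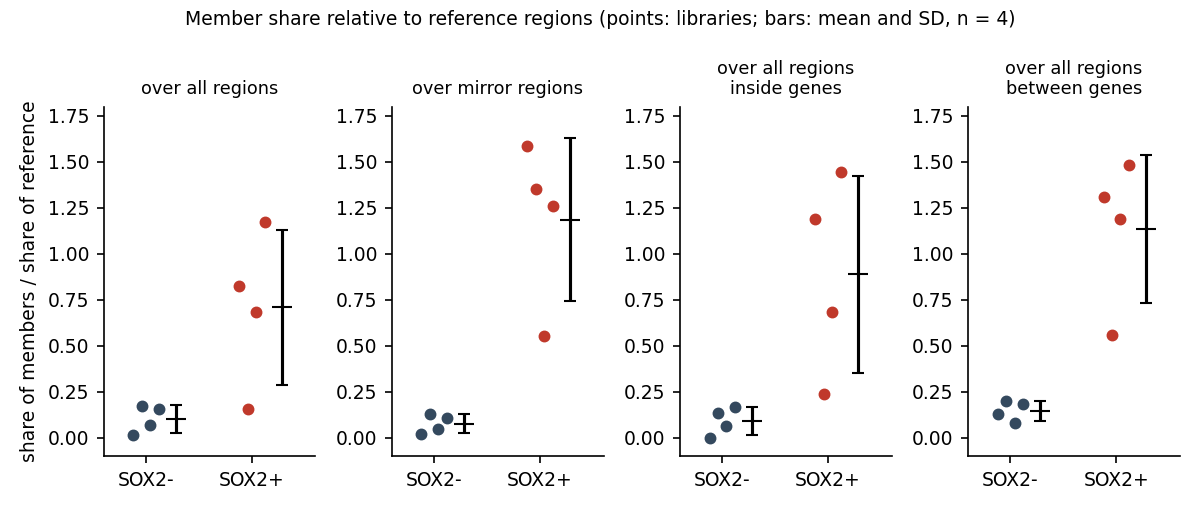
Share of members listed divided by the share of reference regions listed in the same library (vertical axis, a ratio), for SOX2- and SOX2+ libraries (points), with the mean and SD of 4 beside them. The reference is named above each panel, and SOX2- libraries lie at 0.200 or below in all 4. The ratio at gene ends, which reaches 0.267 in SOX2- replicate 2, is not drawn.

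None of the 7 comparisons passed an adjusted p of 0.05 with the lists as deposited. With equal peak numbers, 7009 from every list, 293 regions met the rule, and 6 of the 7 passed, each with an exact permutation p of 0.0286 (adjusted 0.0333) and with every SOX2+ library above every SOX2- library. The same 6 passed without SOX2+ replicate 2 (adjusted p = 0.0333, exact). The seventh compared the strength of the listed peaks. The median score percentile of the set's peaks was 23.8, 20.6, 25.8 and 31.1 for SOX2+ replicates 1 to 4. For SOX2- replicates 1 to 4 it was 36.3, 28.5, 29.6 and 20.9, where replicate 1 rests on 1 peak (means 25.3 ± 4.42 and 28.8 ± 6.29, exact permutation p = 0.40). The groups overlapped, and the sign turned with equal peak numbers (3.88).

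Region by region, 287 of the 430 (66.7%) were listed in at least 1 SOX2+ and 0 of 4 SOX2- libraries, where 23.5% of all regions were. The share was 53.1% for regions in both SOX2+/MKI67- and 1 of 2 SOX2+/MKI67+ libraries. It was 37.1% for regions in 1 of 2 SOX2+/MKI67- and 0 of 2 SOX2+/MKI67+ libraries. Of the 430, 10 (2.33%) were in the opposite class, where 26.4% of all regions were, and 55 (12.8%) were listed in both groups. Of the SOX2+ libraries, 181 regions were in 1, 110 in 2, 49 in 3 and 2 in 4, and 137 were in SOX2+ replicate 4 alone. The median of the mean score percentile in the SOX2+/MKI67- lists was 17.4 for the 88 regions in no SOX2+ library, 24.0 for those in 1, 26.3 for those in 2, 31.2 for those in 3 and 20.2 for the 2 in 4. Apart from those 2, regions listed in more SOX2+ libraries were thus stronger in the median.

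With the stricter call of 3 or 4 SOX2+ libraries and no SOX2- library, 37 regions of the set (8.60%) were called, beside 4.1% of all regions. Among the 14012 regions listed in both SOX2+/MKI67- libraries and in at least 1 SOX2+/MKI67+ library the share was of like size, at 1420 (10.1%). It was higher, at 300 (18.9%), for the 1585 of these in 1 of 2 SOX2+/MKI67+ libraries, and 1120 (9.01%) for the 12427 in both. The opposite call, 3 or 4 SOX2- libraries and no SOX2+ library, took 0 of the 430, beside 1.54% of all regions. With 1 SOX2- library left out that call became at least 2 of the 3 remaining, and took 3, 2 and 1 without replicates 1, 3 and 4. With 1 SOX2+ library left out the call became at least 2 of the 3 remaining, a looser one, and took 68, 119 and 85 without SOX2+ replicates 1, 2 and 3. The share of all regions that meet these looser calls was not taken. The 4.1% and 1.54% belong to the stricter calls and cannot be set beside these counts. When 1 library left the rule, the number of chosen regions changed as well as the count of 37. The call took 48 of 1369 regions without SOX2+/MKI67- replicate 1 and 57 of 2135 without replicate 2. It took 54 of 539 without SOX2+/MKI67+ replicate 1 and 320 of 1906 without replicate 2. Of the 35 called with 3 SOX2+ libraries, 30 lacked SOX2+ replicate 2.

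Of the 37, 2 lay at gene ends, 19 elsewhere inside genes and 16 between genes. Only 2 were in 4 of 4 SOX2+ and 0 of 4 SOX2- libraries (0.465%, beside 1.61% of all regions). One lay inside Trmt10a, a tRNA methyltransferase gene, at chr3:138156223-138156879, with score percentiles of 30.2 and 25.2 in the SOX2+/MKI67- lists. The other lay 10.2 kb from Siah3, of the Siah family of ubiquitin ligases, at chr14:75445484-75446018, with 8.55 and 16.9. Both were therefore weak where the set was chosen.

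The strongest of the 37 by mean score percentile, chosen for naming after their values were seen, were 2 on chromosome 13. A region inside Elmo1, whose protein drives cell motility through Rac, lay at chr13:20133520-20134045, with percentiles of 53.9 and 78.3, and was listed in SOX2+ replicates 1, 2 and 4. A region 3.30 kb from Calml3, a calmodulin-like gene, lay at chr13:3807375-3807869, with percentiles of 72.8 and 57.7, and was listed in SOX2+ replicates 1, 3 and 4. Both lie in the part of chromosome 13 described below.

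Of the 37, 7 had no protein-coding span within 100 kb, and 3 of these, at chr1:19777104-19777551, chr1:61302639-61303175 and chr13:72769216-72769654, were stronger than several named next. Their percentiles were 59.1 and 45.7, 50.5 and 52.9, and 53.1 and 49.5, and all 3 were listed in SOX2+ replicates 1, 3 and 4. Among those with a gene, the region inside Nkain2, whose protein binds the sodium pump, was at chr10:32881953-32882389 with percentiles of 57.4 and 54.4. That inside Sv2b, a synaptic vesicle protein gene, was at chr7:75118075-75118439 with 52.5 and 40.8. That inside Tmeff1, a transmembrane protein gene with follistatin-like domains, was at chr4:48605624-48606097 with 34.9 and 58.1. The Nkain2, Sv2b and Tmeff1 regions were listed in SOX2+ replicates 1, 3 and 4. The region inside Il34, which encodes a ligand of the receptor CSF1R, was at chr8:110794508-110794936 with 56.3 and 38.9, in SOX2+ replicates 1, 2 and 4. Regions between genes were nearest to Il17a (chr1:20724659-20725219, 5.97 kb away), which encodes a cytokine, the kallikrein protease gene Klk15 (chr7:43919808-43920185, 9.41 kb), Rubcnl (chr14:75011049-75011560, 4.68 kb), an autophagy gene, and Atp6ap1l (chr13:90846118-90846539, 37.1 kb). The Il17a region was in SOX2+ replicates 2, 3 and 4, and the other 3 in replicates 1, 3 and 4. Nearness names the closest protein-coding span and says nothing of the gene's use.

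The regions at the Cacnb4, Emp1 and Parp8 promoters shown above were among the 37. Cacnb4 had percentiles of 56.3 and 27.1, Parp8 of 34.0 and 16.9, and Emp1 of 0.588 and 0.50, which puts the Emp1 peaks among the weakest of their lists. All 3 were listed in SOX2+ replicates 1, 3 and 4. The SOX2+/MKI67- fold of the authors was 4.62 and 3.72 at Cacnb4, 3.28 and 3.19 at Parp8 and 3.03 and 3.08 at Emp1.

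The 78 regions listed in none of the 8 SOX2 sort libraries were led by a region inside Coil, which encodes the Cajal body protein coilin. It lay at chr11:88983362-88983600 and had score percentiles of 55.7 and 54.8. A region inside the cadherin gene Cdh18 (chr15:23230629-23230880) had 27.3 and 49.5, one inside Fam107a (chr14:8305076-8305433) 35.7 and 40.1, and one 12.9 kb from Rimklb (chr6:122434212-122434620), whose enzyme makes the neuropeptide NAAG, 46.8 and 32.8. A further one lay at chr15:68695120-68695505, 233 kb from the nearest protein-coding span (44.9 and 32.8). All 5 ranked above the median percentile of the set in both lists.

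By position, 52 of the 430 regions (12.1%, exact 95% binomial interval 9.16 to 15.6%) lay within 1 kb of a gene end, 191 (44.4%, 39.7 to 49.3%) elsewhere inside a gene span and 187 (43.5%, 38.7 to 48.3%) between genes. Over all regions 27.3% lay at gene ends. The regions listed in all 4 libraries of the MKI67 sort lay at gene ends in 61.7% and the mirror regions in 16.1%. Further, 65 of the 430 (15.1%) lay over 100 kb from any protein-coding span, beside 9.84% of all regions. The regions were 373 bp wide in the median, against 411 bp for all. The share at gene ends rose to 31.1% with equal peak numbers, 21.2% without SOX2+/MKI67+ replicate 2 and 18.9% with the upper 50% of each list. Equal peak numbers and the upper 50% also change which regions are merged. The share of all regions at gene ends was not taken there, so 31.1% and 18.9% cannot be set beside 27.3%. The gene table gives spans without exons, so exons, introns and UTRs were not assigned.

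**Figure D4:**
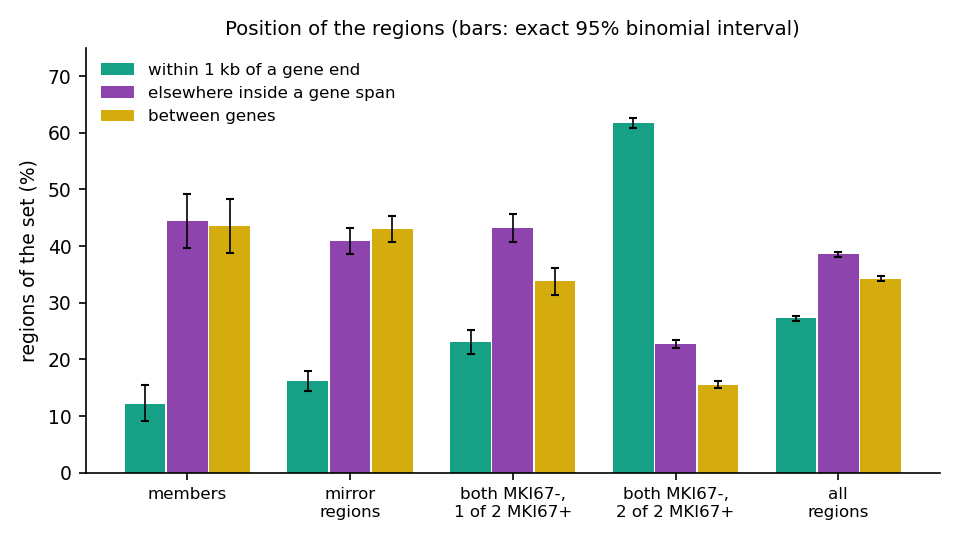
Percent of each region set (vertical axis) within 1 kb of a gene end, elsewhere inside a gene span, or between genes, for 5 sets of regions (horizontal axis), with exact 95% binomial intervals that cover counting error only. Members are at gene ends in 12.1% and regions listed in all 4 MKI67 libraries in 61.7%.

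The regions were spread thinly over genes. The 365 with a protein-coding gene within 100 kb fell to 358 genes, 351 with 1 region and 7 with 2. Carmil1, a regulator of actin capping, had one at chr13:24223718-24224111, listed in SOX2+ replicates 1 and 4, and another at chr13:24268391-24268656, listed in none of the SOX2 sort. Itpr1, the calcium release channel that is abundant in Purkinje cells, had regions at chr6:108303526-108303881, in none of these libraries, and chr6:108417520-108417836, in 2 SOX2+ and 0 SOX2- libraries. Msc, a basic helix-loop-helix repressor gene, had chr1:14740036-14740377 and the gene-end region chr1:14755260-14755950, the latter in 3 SOX2+ and 1 SOX2- libraries. Asb13, Nsmaf, Zscan2 and Sepsecs were the other 4 genes with 2. The Carmil1 and Asb13 regions lie in the part of chromosome 13 described below. Shq1, which assists assembly of RNA-protein particles of the nucleolus, had the next strongest region after Elmo1 and Calml3 (percentiles 73.5 and 53.3, in 2 SOX2+ and 0 SOX2- libraries) among the 10 genes ranked highest by number and strength.

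Genes of 18 lists of lineages, pathways and cell types were looked up. Of 311 symbols in these lists, 277 had any merged region and 10 (3.61%) carried one of the 430, beside 2.43% of all genes with a region. Those counts are a description, since the rule itself chose the regions. Counted over genes with a merged region, carriers were 0 of 20 stem and progenitor, 0 of 20 granule neuron progenitor, 0 of 23 cell cycle, 0 of 23 Wnt and 0 of 17 immediate early and AP-1 genes. They were also 0 of 7 microglia and macrophage, 0 of 3 lymphocyte, 0 of 10 fibroblast and meningeal and 0 of 15 housekeeping genes. The cell cycle inhibitor and quiescence list had 1 of 20, which was Id4, and the neuronal list 1 of 17, Nrxn3.

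Among glial and progenitor regulators, Olig2, which specifies the oligodendrocyte lineage, carried a region 18.0 kb away at chr16:91246402-91246875, with score percentiles of 24.3 and 18.0. It was the 1 carrier of 15 oligodendrocyte lineage genes. Id4, an inhibitor of basic helix-loop-helix factors induced by BMP signalling, carried one 58.3 kb away at chr13:48324123-48324510 (59.1 and 38.9). Both were listed in SOX2+ replicate 4 and in 0 of 4 SOX2- libraries. The Id4 region lies in the part of chromosome 13 described below. Nfia, a factor of astrocyte formation, carried one inside the gene at chr4:98027432-98027730 (48.7 and 10.8), listed in none of the 8. Id4 and Nfia were the 2 carriers of 15 astrocyte and Bergmann glia genes.

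Among signalling genes, 3 of 28 BMP and TGF-beta genes carried a region. Besides Id4 these were the signal transducer Smad1 (chr8:79474718-79475065, 75.5 kb away, in SOX2+ replicate 4 only) and the ligand gene Tgfb2 (chr1:186627489-186627978, inside the gene). The Tgfb2 region was listed in 3 SOX2+ and 3 SOX2- libraries, the most SOX2- libraries of any region in the set beside 1 other. Gli2, the hedgehog effector, was the carrier among 15 hedgehog genes, with a region inside it at chr1:118895192-118895673 (34.9 and 43.4) in SOX2+ replicate 4. Maml2, a Notch coactivator, was the carrier among 16 Notch genes and was in 1 SOX2+ and 1 SOX2- library. Of other cell types, Pdgfrb was the carrier among 13 endothelial and mural genes and Dnah5 among 11 ependymal and ciliated genes, with percentiles of 2.31 and 2.63 at Pdgfrb and 7.14 and 10.8 at Dnah5, and 0 SOX2+ libraries at either.

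Chromosome 13 up to 70 Mb held 27 of the 430 regions, or 2.93% of its 922 merged regions, against 0.972% over the genome. The rest of chromosome 13 had 7 of 773 (0.906%). Chromosome 3 had 41 of 2412 (1.70%), and chromosome X 3 of 913 (0.329%). In the same part of chromosome 13 mirror regions were 12 (1.30%, against 4.03% over the genome). The lists themselves differed there. The part held 2.67% and 2.57% of all peaks in SOX2+/MKI67- replicates 1 and 2, 1.99% and 2.07% in SOX2+/MKI67+ replicates, 2.29%, 2.10%, 1.86% and 2.50% in the 4 SOX2+ lists, and 0.828%, 1.81%, 1.38% and 1.14% in the 4 SOX2- lists. Both SOX2+/MKI67- lists were above every other list, and every SOX2- list was below every SOX2+ list. Ptch1, the gene altered in these mice, lies in it at chr13:63508328-63573460. The comparisons of the SOX2 sort changed little without this part, the ratio to mirror regions differing by 1.12 between groups instead of 1.11.

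**Figure D5:**
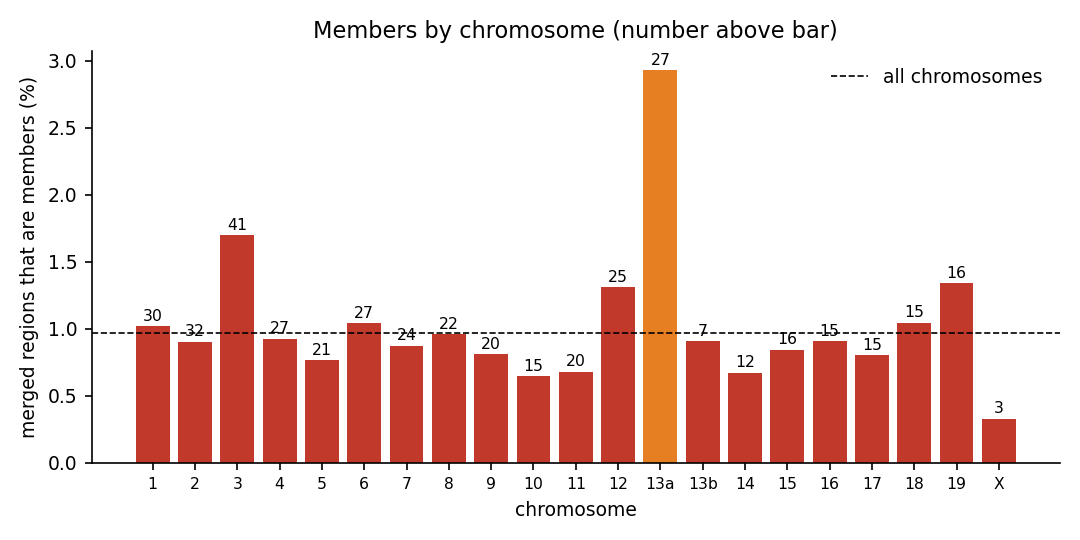
Percent of merged regions that are members (vertical axis) on each chromosome (horizontal axis), with the number of members above each bar and a dashed line at 0.972% for all chromosomes. Chromosome 13 is drawn as 13a, up to 70 Mb, where the bar reaches 2.93%, and 13b, beyond 70 Mb, at 0.906%.

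The regions just outside the rule show where it draws its line. The 1585 regions in both SOX2+/MKI67- and 1 of 2 SOX2+/MKI67+ libraries were listed at 55.9 ± 31.4% in SOX2+ and 20.5 ± 15.8% in SOX2- libraries (SD, n = 4 each), and for 93.1% of them the 1 library was SOX2+/MKI67+ replicate 2. The 2644 regions in 1 of 2 SOX2+/MKI67- and 0 of 2 SOX2+/MKI67+ libraries were listed at 15.6 ± 14.6% in SOX2+ and 4.99 ± 4.95% in SOX2- libraries. The set, at 32.3% and 4.88%, thus lay between these classes in SOX2+ libraries and beside the latter in SOX2- libraries. Within deciles of strength the values were as follows. In decile 1 its 203 members were listed at 26.5 ± 21.9% in SOX2+ and 4.56 ± 4.24% in SOX2- libraries, and the other regions of that decile at 57.6 ± 32.9% and 39.2 ± 24.7%. In decile 3 the 62 members were at 33.5 ± 31.4% and 3.63 ± 3.58% and the others at 73.0 ± 28.8% and 47.7 ± 23.9%. The same libraries gave both values, so these SDs hold differences between libraries and do not measure the gap within each. Without regard to strength, SOX2+ replicates 1 to 4 listed 30.5%, 3.26%, 29.8% and 65.8% of members. They listed 88.1%, 62.6%, 88.7% and 98.2% of the 14012 other regions in both SOX2+/MKI67- libraries. No test was made, since strength was measured in the libraries that chose the set.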

How the data were processed

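Per the labels' protocols, 35000 to 50000 cells went into each ATAC-seq library, read to 50 bp from 1 end. The submitters' processing notes name Bowtie2, MACS2 and the build mm10. Each deposited list holds 1 library. How duplicates were handled, whether reads were shifted for the transposase and which thresholds applied was not given in the sources used here. Those deposited lists give, as the authors made them, a score, a fold ratio over local background, -log10 p-values and q-values, and a summit offset per peak. The deposited score is 10 times the -log10 q-value cut to a whole number in nearly all peaks, and was ranked only within its list.

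Positions were made 1-based and merged in Python 3.11.15 (pandas 2.3.3, numpy 2.4.6, scipy 1.17.1). Region midpoints were set against 21631 protein-coding spans of GRCm38.p6, to the nearest within 100 kb. Groups were compared by 2-sided exact permutation over the 70 assignments of 8 libraries, adjusted by Benjamini and Hochberg over 7 tests. Merging and test were checked on simulated lists. Regions were named by class of listing and score percentile, and genes by number of regions or list membership. All 311 list symbols matched the gene table. Members and lists were chosen with earlier results of these data known. Alternatives changed the merging, thresholds, list lengths, overlap, libraries and replicate block. RefSeq promoters were not used for distances, and those of chromosome 18 were not used here.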

Additional observations from a re-analysis of the deposited data

How the results depend on the processing

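The SOX2+ against SOX2- differences in share and in the 5 ratios kept their sign under every alternative run, and that in median score percentile did not. With equal peak numbers the difference in share was 27.9 percentage points, and that in ratio was 0.553 over all regions, 0.679 over mirror regions, 0.194 at gene ends, 0.898 inside genes and 1.34 between genes, all passing (exact permutation, adjusted p = 0.0333). The difference in median percentile turned to 3.88 there. Its cause was not tested. With 1 library left out in turn, from the rule or from the comparison, the difference in share ranged from 13.4 to 37.1 percentage points, the ratio over all regions from 0.29 to 0.801, over mirror regions from 0.317 to 3.67, at gene ends from 0.149 to 0.413, inside genes from 0.381 to 1.24 and between genes from 0.427 to 1.37. The median percentile ranged from -6.14 to 3.07, turning to 2.33 and 3.07 without SOX2+/MKI67+ replicates 1 and 2. Of these settings only that without SOX2+ replicate 2 gave an adjusted p under 0.05. It was 0.05 (exact permutation), which was not counted as passing, for the ratios over all and mirror regions, inside genes and between genes without SOX2+/MKI67+ replicate 2, and likewise when a peak's midpoint had to lie in the central 50% of its region. The number of regions ranged from 539 to 2135, the count in all or all but 1 SOX2+ and 0 SOX2- libraries (2 of 3 where 1 was left out, which loosens the call) from 37 to 320, the opposite count from 0 to 3 and the gene-end share from 10.1 to 21.2%. The upper 50% of each list gave 180 regions, 14 of them so called and 18.9% at gene ends. The gene-end share was 31.1% with equal peak numbers and 15.6% within 2 kb. The share over all regions was not taken under these settings. The median percentile had no value with the upper 50%. Leaving out chromosome 13 up to 70 Mb was chosen after seeing the data and changed no call. Same-numbered SOX2+ and SOX2- libraries did not deviate together over all regions (correlations from -0.0203 to 0.0289, not each library's best), so the numbers are not taken to pair them. With the replicate block, the signs of the 4 differences between same-numbered libraries were flipped in every combination. The exact sign-flip p was 0.25 for the share and 0.125 for the ratio over mirror regions (differences 27.4 and 1.11). As 0.125 is the smallest 4 pairs can give, no call was possible.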
